A study of Mus musculus with 16 samples.

Results

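Of polyamine synthesis and turnover, 9 genes chosen by name were followed in mouse proximal tubular cells: Odc1, Amd1, Srm, Sms, Sat1, Smox, Oaz1, Oaz2 and Azin1. They were taken by gene symbol from the array's platform annotation, which named a probe set for 7 of the 9 genes, 1 probe set each, among 22206 probe sets tested. Amd1 and Oaz1 had no named probe set there and were not analysed here. The cells were BU.MPT, a mouse proximal tubular line, grown at 39 °C without interferon-gamma in every group, with 4 groups of 4 arrays. The H/R+B12 group went through hypoxia and reperfusion in medium with cyanocobalamin (0.3 µM), a form of vitamin B12, and the H/R group went through the same without it. Hypoxia meant 3 h at about 1% oxygen in medium lacking glucose and serum, and reperfusion meant 1 h back in normal culture. The control+B12 group stayed in normal culture (21% oxygen, 10% serum, 4.5 g/L glucose) with 0.3 µM cyanocobalamin, and the control group had no cyanocobalamin. Titles of all B12 samples read B12, while some free-text descriptions read B13 to B15, and the title was followed. Nothing in the labels tells if replicates came from separate cultures, so p-values measure the spread between these samples, which may be technical.

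Putrescine, spermidine and spermine are small polycations that bind nucleic acids and are needed for growth and translation. Ornithine decarboxylase (Odc1) makes putrescine, and the aminopropyl donor made by S-adenosylmethionine decarboxylase (Amd1) lets spermidine synthase (Srm) and spermine synthase (Sms) extend it. Antizymes (Oaz1, Oaz2) bind ornithine decarboxylase and send it to the proteasome, and antizyme inhibitor (Azin1), an inactive relative of the decarboxylase, binds antizyme in its place. Spermidine/spermine acetyltransferase (Sat1) starts the export and breakdown route, and spermine oxidase (Smox) turns spermine back into spermidine with release of hydrogen peroxide. Much of this control acts on translation and protein decay, which arrays of RNA do not read.

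The 7 genes moved unevenly after H/R. Smox and Azin1 rose in both H/R comparisons, with Smox 2.74-fold and Azin1 1.64-fold higher in H/R than in control. Srm and Sat1 also rose in both, by 1.65-fold and 1.33-fold in H/R against control. Odc1 rose 1.81-fold with B12 in both arms and did not pass without it. Sms stayed near its control level, Oaz2 had lower means after H/R that did not pass, and no gene passed in either comparison of B12. By limma, 4 of 7 genes passed in H/R against control, all higher, where 17.6% of all probe sets passed, 8.11% as higher and 9.54% as lower. In H/R+B12 against control+B12 5 of 7 passed, all higher, where 18.7% of all probe sets passed, 9.04% as higher and 9.61% as lower. Those shares also count probe sets dimmer than the negative control features, above which all 7 genes lay. The median log2 difference of the 7 genes was 0.41 in H/R against control and 0.85 in H/R+B12 against control+B12, beside -0.02 and -0.04 over all 22206 probe sets. The genes were chosen with earlier results of these data known. Their counts and medians beside all probe sets are therefore descriptive and no test of the list.

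The values are the authors' log2 signals from robust multi-array averaging (RMA), a summary of the probes of each probe set after joint normalization of the arrays. All 7 genes had means over the 16 arrays above 6.23, the highest of the array medians of the negative control features. The array medians over all tested probe sets, 5.21 to 5.37, lay below it. No share was taken among the brighter probe sets alone. A difference in bulk signal cannot tell a change in all cells from a change in the share of cells that express a gene. Of 9 measured genes listed as proximal tubule markers 3 lay above the negative controls. These were the transcription factor Pax8, the cadherin Cdh16 and the water channel Aqp1, while Slc34a1, Slc5a2, Slc22a6, Lrp2, Cubn and Hnf4a did not. Whether these 3 are particular to that segment was not tested. The keratins Krt8 and Krt18 were above the negative controls among 4 epithelial markers. Krt18 was higher in H/R+B12 than in control+B12, by 1.43 (adjusted p = 0.000251), and in H/R than in control, by 0.82 (adjusted p = 0.0166). The summed signal of the epithelial list, on the log2 scale, was 12.60 to 12.89 in H/R+B12 arrays, against 11.43 to 11.85 in control+B12 arrays, and 12.34 to 12.77 in H/R arrays, against 11.34 to 12.81 in control arrays. Over the 9 genes of the proximal tubule list 1 passed in each of these comparisons, Aqp1, which was lower by the same test (-0.87 with B12 and -0.79 without). Pax8 (0.06 and 0.18) and Cdh16 (-0.16 and -0.24) did not pass, and 5 of the 9 differences in H/R against control were above 0. The part of these markers in the results below was not tested. Of 16 measured markers of 6 other cell types 1, the podocyte gene Nphs1, lay above it. In H/R against control 0 of these 16 passed, and in H/R+B12 against control+B12 1 passed, the leukocyte gene Ptprc, whose group means of 4.26 and 3.34 both lay below the negative controls. Array medians over the tested probe sets ran from 5.21 to 5.28 in H/R+B12 arrays and from 5.24 to 5.29 in H/R arrays, against 5.28 to 5.37 in control+B12 arrays and 5.31 to 5.36 in control arrays. The number of arrays limits the precision of every value.

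**Figure D1:**
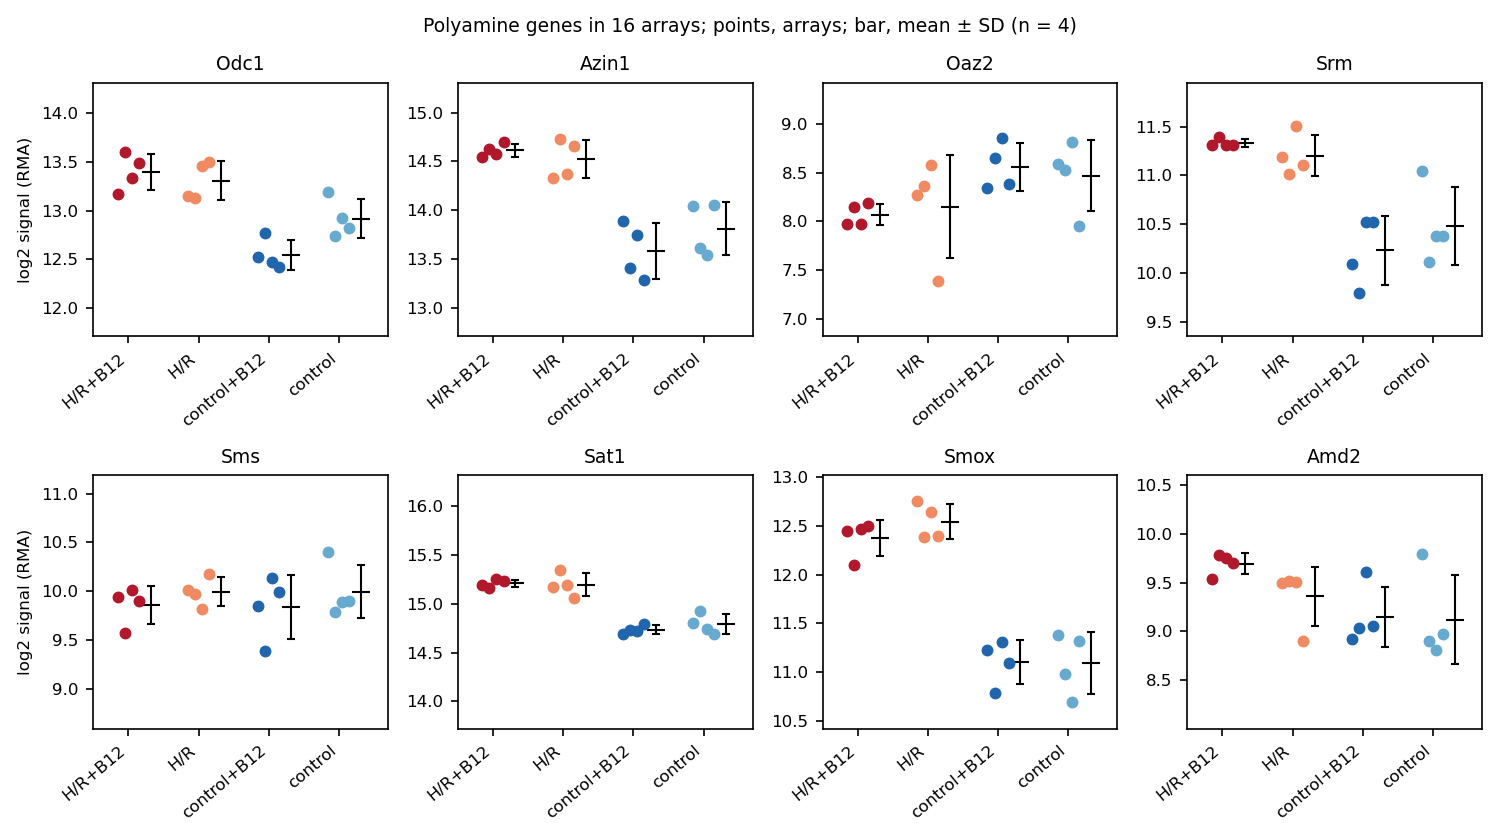
Each point is the log2 signal (RMA) of 1 array, in the order H/R+B12, H/R, control+B12 and control, with the mean and SD of 4 arrays beside the points. Every panel spans the same log2 range, so a reader should see that Smox moved most, that Sms did not separate the groups, and that control replicate 1 lies high in Odc1, Srm, Sms and Amd2.

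Odc1, the entry enzyme of the pathway, lies on chromosome 12 of GRCm38.p6 (17544808 to 17551502). Its log2 signal was 13.17, 13.60, 13.34 and 13.49 in H/R+B12 arrays, against 12.52, 12.77, 12.47 and 12.42 in control+B12 arrays. The 2 groups did not overlap. The difference was 0.85 ± 0.15 on the log2 scale (SE, n = 4 against 4, limma adjusted p = 0.000653). Without B12 the signals were 13.15, 13.13, 13.46 and 13.50 in H/R arrays, against 13.19, 12.74, 12.92 and 12.82 in control arrays. Here control replicate 1 lay above 2 of the 4 H/R arrays, and the difference of 0.39 ± 0.15 did not pass (95% interval 0.07 to 0.71, adjusted p = 0.0909). Without control replicate 1 it was 0.48 and passed (adjusted p = 0.0443), as it did with arrays centred on their medians (0.46, adjusted p = 0.0475) and with an intensity trend and robust variances (0.39, adjusted p = 0.0204). Over all alternatives its adjusted p ran from 0.000239, with H/R averaged over both B12 conditions, to 0.222; averaged in that way, 27.2% of all probe sets passed. Control replicate 1 also had the highest Krt8 signal of the control arrays, at 11.62, where replicates 2 to 4 had 9.86 to 10.52. The order of the group means was H/R+B12 (13.40), H/R (13.31), control (12.92) and control+B12 (12.55). Neighbours in that order did not pass a test of their difference.

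Azin1, which spares ornithine decarboxylase by occupying antizyme, had 14.55, 14.63, 14.58 and 14.70 in H/R+B12 arrays, against 13.89, 13.41, 13.75 and 13.28 in control+B12 arrays. All 4 H/R+B12 arrays were above all 4 control+B12 arrays, and the difference was 1.03 ± 0.17 (adjusted p = 0.000362). It had 14.33, 14.73, 14.37 and 14.65 in H/R arrays, against 14.04, 13.61, 13.53 and 14.05 in control arrays. These groups did not overlap either, with a difference of 0.71 ± 0.17 (adjusted p = 0.0065). Azin1 lies on chromosome 15 (38487430 to 38519294). Its call held under every alternative run, with differences from 0.93 to 1.14 with B12 in both arms. For H/R against control they ran from 0.62 to 0.87, the upper end being H/R averaged over both B12 conditions. Without control replicate 1 the difference in H/R against control was as large, at 0.79. The order of means was H/R+B12 (14.61), H/R (14.52), control (13.81) and control+B12 (13.58), with neighbours across the H/R state separated and the pairs that differ only in B12 not.

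Oaz2, an antizyme, went the other way in its means without passing. It had 7.98, 8.14, 7.98 and 8.19 in H/R+B12 arrays, against 8.34, 8.66, 8.86 and 8.38 in control+B12 arrays. The groups did not overlap, as in 11.2% of all probe sets in that direction, and the difference was -0.49 ± 0.23 (95% interval -0.98 to 0.01, adjusted p = 0.179). In H/R arrays it had 8.27, 8.37, 8.58 and 7.38, against 8.59, 8.53, 8.81 and 7.95 in control arrays. Replicate 4 was the lowest array of both groups, and the groups overlapped, with a difference of -0.32 ± 0.23 (adjusted p = 0.441). With H/R averaged over both B12 conditions the difference was -0.40 ± 0.17 (adjusted p = 0.0866). The group means ran in the order control+B12 (8.56), control (8.47), H/R (8.15) and H/R+B12 (8.07), and no neighbours passed.

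Srm, which adds an aminopropyl group to putrescine to make spermidine, lies on chromosome 4 (148591513 to 148594619). It read 11.31, 11.39, 11.31 and 11.32 in H/R+B12 arrays, against 10.09, 9.79, 10.52 and 10.52 in control+B12 arrays. The H/R+B12 arrays lay close together and above all control+B12 arrays, with a difference of 1.10 ± 0.20 (adjusted p = 0.000944). In H/R arrays it read 11.19, 11.01, 11.51 and 11.11, against 11.05, 10.11, 10.38 and 10.38 in control arrays. Only H/R replicate 2 lay below a control array, control replicate 1, and the difference was 0.72 ± 0.20 (adjusted p = 0.0187). That call was lost without control replicate 2 (0.60, adjusted p = 0.0684), control replicate 3 (0.69, adjusted p = 0.0504) or H/R replicate 3 (0.62, adjusted p = 0.0656). Without control replicate 1 the difference was 0.91 (adjusted p = 0.00273). Its order of means was H/R+B12 (11.33), H/R (11.20), control (10.48) and control+B12 (10.23).

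Sms, which makes spermine from spermidine, had 9.94, 9.57, 10.01 and 9.90 in H/R+B12 arrays, against 9.85, 9.38, 10.13 and 9.99 in control+B12 arrays. It had 10.02, 9.97, 9.82 and 10.18 in H/R arrays, against 10.40, 9.79, 9.89 and 9.90 in control arrays. The groups overlapped in both comparisons. The differences were 0.02 ± 0.18 (95% interval -0.36 to 0.40) with B12 and 0.00 ± 0.18 (95% interval -0.38 to 0.38) without it. These intervals reach neither the Srm difference of 1.10 with B12 nor that of 0.72 without it. The Srm intervals were 0.67 to 1.53 with B12 and 0.30 to 1.15 without it, the latter overlapping that of Sms. Sms was not tested against Srm.

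The probe set nearest to Amd1 was one named Amd2, a mouse gene closely related to Amd1 whose values may include signal from it. It is no member and was looked at after the annotation showed no Amd1. Amd2 had 9.54, 9.78, 9.75 and 9.70 in H/R+B12 arrays, against 8.92, 9.03, 9.60 and 9.05 in control+B12 arrays. It had 9.50, 9.52, 9.51 and 8.91 in H/R arrays, against 9.80, 8.90, 8.81 and 8.97 in control arrays. Single arrays of 3 groups lay far from their neighbours, and the differences of 0.54 ± 0.22 with B12 (adjusted p = 0.101) and 0.24 ± 0.22 without it (adjusted p = 0.557) did not pass. With B12 in both arms the difference passed without control replicate 1 (0.54, adjusted p = 0.0404) or control+B12 replicate 3 (0.69, adjusted p = 0.0415).

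Smox, the oxidase that converts spermine to spermidine, lies on chromosome 2 (131491858 to 131525183) and had the largest H/R difference of the 7 genes in both comparisons. It had 12.45, 12.10, 12.47 and 12.50 in H/R+B12 arrays, against 11.22, 10.79, 11.31 and 11.10 in control+B12 arrays. In H/R arrays it had 12.75, 12.39, 12.64 and 12.40, against 11.38, 10.98, 10.69 and 11.32 in control arrays. Every H/R array lay at least 0.79 above the highest array cultured normally with the same B12 state. The differences were 1.27 ± 0.17 with B12 (adjusted p = 7.1e-05) and 1.45 ± 0.17 without it (adjusted p = 2.17e-05). Both calls held under every alternative run, with differences from 1.17 to 1.37 and from 1.32 to 1.55. The group means were 12.55 in H/R, 12.38 in H/R+B12, 11.10 in control+B12 and 11.09 in control.

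Sat1, the acetyltransferase that marks polyamines for export or oxidation, lies on the X chromosome (155213126 to 155216449). Its mean over 16 arrays, 14.98, was among the brightest 3% of probe sets. It had 15.20, 15.16, 15.25 and 15.23 in H/R+B12 arrays, against 14.69, 14.73, 14.72 and 14.80 in control+B12 arrays. It had 15.18, 15.35, 15.19 and 15.06 in H/R arrays, against 14.80, 14.93, 14.74 and 14.69 in control arrays. The groups were tight and did not overlap in either comparison. The rises were smaller than those of Smox, 0.47 ± 0.11 with B12 (adjusted p = 0.00633) and 0.41 ± 0.11 without it (adjusted p = 0.0172). Without B12 the call was lost in a fit of only the 2 groups compared (0.41, adjusted p = 0.0797), after quantile normalization (0.33, adjusted p = 0.0550), and without control replicate 4 (0.37, adjusted p = 0.0509) or H/R replicate 2 (0.36, adjusted p = 0.0607). With B12 it held under every alternative run.

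Groups that did not overlap were found for 3 of 7 genes as higher in H/R against control (Azin1, Sat1 and Smox), where 9.88% of all probe sets did so, and for 0 as lower, where 11.0% did so. In H/R+B12 against control+B12 they were found for 5 of 7 as higher, where 10.3% did so, and for 1 as lower (Oaz2), where 11.2% did so. Between H/R+B12 and H/R arrays 0 of the 7 genes separated, where 1.38% of all probe sets did as higher and 1.49% as lower. Between control+B12 and control arrays 0 of the 7 did, where 1.36% did as higher and 1.51% as lower.

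**Figure D2:**
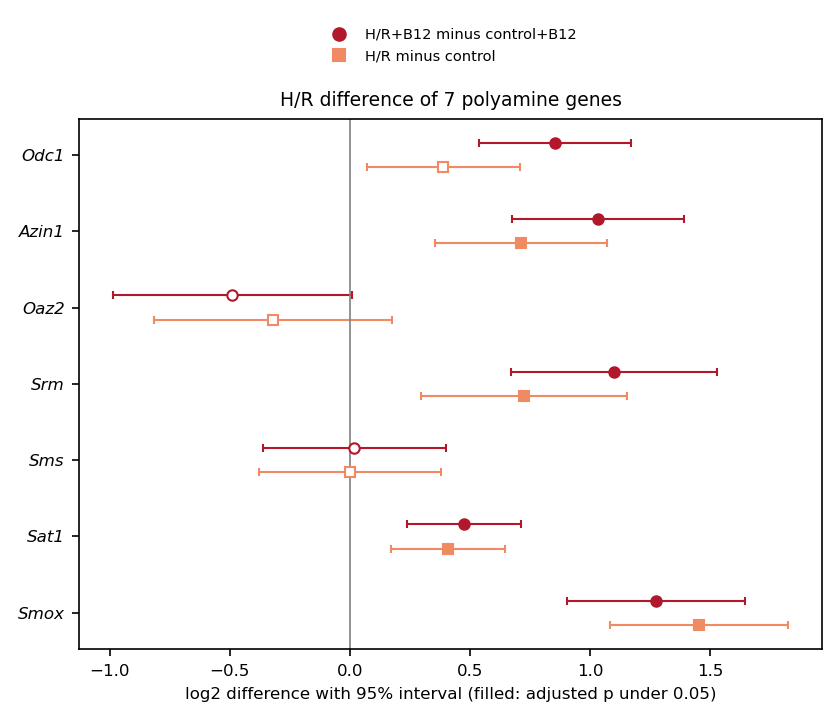
Log2 differences with 95% intervals for the 7 genes, H/R+B12 minus control+B12 as circles and H/R minus control as squares; filled symbols passed an adjusted p of 0.05. Smox lies farthest to the right at 1.27 and 1.45, Sms lies at 0.02 and 0.00, and Oaz2 lies left of 0 with open symbols.

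Upstream sequence from RefSeq (GRCm38.p6) is shown for Smox, Sat1 and Odc1, the members that passed in at least 1 H/R comparison and have a promoter window in the reference table, so that their starts can be compared. The bases printed end just before the annotated gene, read 5′ to 3′ on the gene's strand, and capitals mark GGGCGG, the Sp1 motif, or TGACG, the core of the cAMP response element, on either strand.
Smox, chr2:131491612-131491857, plus strand: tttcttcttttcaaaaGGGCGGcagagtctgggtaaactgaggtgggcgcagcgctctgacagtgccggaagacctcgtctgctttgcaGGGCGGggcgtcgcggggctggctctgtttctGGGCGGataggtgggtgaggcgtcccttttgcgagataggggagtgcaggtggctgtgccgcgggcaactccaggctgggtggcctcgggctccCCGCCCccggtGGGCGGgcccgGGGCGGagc
Sat1, chrX:155216450-155216699, minus strand: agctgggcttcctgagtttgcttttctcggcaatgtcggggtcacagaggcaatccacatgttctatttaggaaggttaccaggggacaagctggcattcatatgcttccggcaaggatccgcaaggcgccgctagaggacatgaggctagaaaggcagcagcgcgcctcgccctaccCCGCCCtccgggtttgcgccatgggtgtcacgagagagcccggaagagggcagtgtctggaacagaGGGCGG
Odc1, chr12:17544623-17544807, plus strand: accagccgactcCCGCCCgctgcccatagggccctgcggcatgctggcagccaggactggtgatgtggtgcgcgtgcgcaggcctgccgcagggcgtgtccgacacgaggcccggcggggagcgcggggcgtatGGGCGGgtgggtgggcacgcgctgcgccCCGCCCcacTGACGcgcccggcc
The printed Smox stretch (246 bases) holds 6 matches to GGGCGG, that of Sat1 (250 bases) holds 2 and that of Odc1 (185 bases) holds 3. The full Odc1 window held 4. Odc1 also holds 1 match to TGACG. In 250 bases before the start, GGGCGG was in 32.7% of 32851 windows of the table and TGACG in 17.8%. These shares are per window, while a listed gene was counted if any of its windows held the motif. Sms had 2 windows, and Srm and Azin1 had none. Of 7 listed genes with a window, 6 held GGGCGG, among them Oaz2, whose signal did not pass, and 3 held TGACG, which were Odc1, Amd1 and Oaz1. The E-box CACGTG, found in 6.02% of all windows, and ACGTG, the core of the hypoxia response element, found in 16.6%, were in 1 of the 7 genes, Sms, where the ACGTG matches overlap the E-box. TGANTCA, the AP-1 motif (6.75% of windows), and TATAAA (12.4%) were in 0 of the 7. These letters describe the windows and say nothing of binding. Sequence farther from the start or within the genes was not searched, so a motif absent here may lie there.

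The genes whose profile over the 16 arrays was most like that of Smox were Hmgcs1, an enzyme of cholesterol synthesis, Tars, a threonyl-tRNA synthetase, and the secreted protease Adamts1. Likeness was the root mean square difference between profiles, each taken as log2 signal minus its mean in control, and was 0.20, 0.21 and 0.21 among 18503 genes, where the median was 1.06. The other members were much farther off by the same measure, with rank 1 for the most alike gene. Srm stood at 0.50 (rank 627), Azin1 at 0.51 (rank 669) and Sat1 at 0.72 (rank 1746). Odc1 stood at 0.75 (rank 2083), Sms at 1.04 (rank 8370) and Oaz2 at 1.28 (rank 14715). Smox alone was treated so, as the only member past the threshold with a log2 difference of at least 1 in H/R against control.

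Adding B12 was the study's other question. Of the 7 genes 0 passed in H/R+B12 against H/R and 0 in control+B12 against control, where 0.00% of all probe sets passed by limma in either. At an unadjusted p under 0.05 the counts were 0 and 1 of the 7, beside 1010 and 1280 of 22206 probe sets. The 1 gene was Odc1 in normal culture, at -0.37 ± 0.15 in control+B12 against control (95% interval -0.69 to -0.05, unadjusted p = 0.0245, adjusted p = 0.841). Control replicate 2 was the only control array below a control+B12 array. After H/R the Odc1 difference was 0.09 ± 0.15 (95% interval -0.23 to 0.41).

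For the other 6 genes the differences in H/R+B12 against H/R lay between -0.17 for Smox and 0.13 for Srm, and those in control+B12 against control between -0.25 for Srm and 0.09 for Oaz2. The narrowest intervals were those of Sat1, from -0.22 to 0.25 after H/R and from -0.29 to 0.18 in normal culture. The widest were those of Oaz2, from -0.58 to 0.42 and from -0.41 to 0.58. Changes within these intervals cannot be told from 0 with 4 arrays a group.

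Whether B12 altered the H/R difference was tested by the interaction, the H/R difference with B12 minus that without. It was 0.46 ± 0.21 for Odc1 (95% interval 0.01 to 0.91, unadjusted p = 0.0437, adjusted p = 0.987). It was 0.38 ± 0.29 for Srm, 0.32 ± 0.24 for Azin1, 0.07 ± 0.16 for Sat1, 0.02 ± 0.25 for Sms, -0.17 ± 0.33 for Oaz2 and -0.18 ± 0.25 for Smox. None passed, so the Odc1 call with B12 and its absence without B12 are not shown to differ.

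**Figure D3:**
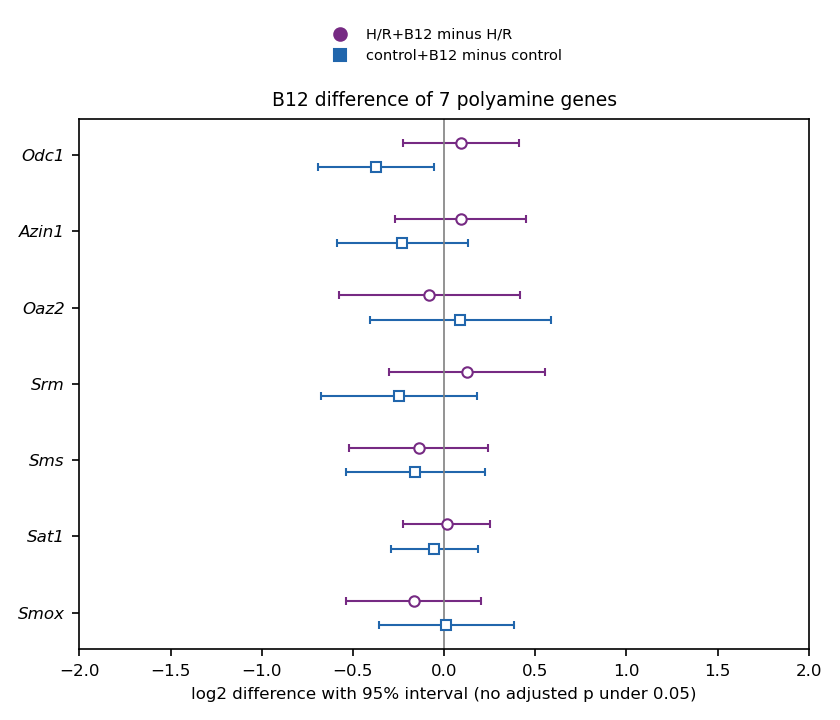
Log2 differences with 95% intervals for the 7 genes, H/R+B12 minus H/R as circles and control+B12 minus control as squares; none passed an adjusted p of 0.05. Odc1 in control+B12 against control, at -0.37, is the 1 interval that does not cross 0.

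The supply of ornithine, from which putrescine is made, had 2 of 8 measured genes higher and 1 lower in H/R against control (list median -0.05). Over all probe sets 8.11% passed there as higher and 9.54% as lower. Of the 8 genes 4 lay above the negative controls, and the median of those 4 was 0.55. Aldh18a1, which makes a precursor of proline and ornithine from glutamate, rose by 1.36 ± 0.14 (adjusted p = 5.39e-06), and Arg2, the mitochondrial arginase that releases ornithine, rose by 1.18 ± 0.24 (adjusted p = 0.00182). Oat, which turns ornithine toward glutamate, fell by 0.55 ± 0.13 on the log2 scale (difference -0.55, adjusted p = 0.00775). With B12 in both arms the differences were 1.20 for Aldh18a1, 0.96 for Arg2 and -0.47 for Oat, and all 3 passed. The Oat call with B12 was lost with arrays centred on their medians (-0.38, adjusted p = 0.0618), in a fit of only the 2 groups compared (adjusted p = 0.0676), and without H/R+B12 replicate 2 (adjusted p = 0.0646), H/R+B12 replicate 4 (adjusted p = 0.0628) or control+B12 replicate 2 (adjusted p = 0.0682).

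S-adenosylmethionine supply and methionine salvage, which feeds and recycles the aminopropyl donor, had 2 of 7 measured genes lower and 0 higher (median -0.27). Mat2a, also on the list, had no named probe set. Mat1a lay below the negative controls, with a mean over 16 arrays of 3.32. Over the 6 genes above the negative controls the median was -0.28. The list therefore read salvage more than supply. Over all probe sets 9.54% passed as lower and 8.11% as higher. Apip was at -0.79 ± 0.22 (adjusted p = 0.0182) and Adi1 at -0.55 ± 0.17 (adjusted p = 0.0314), both enzymes of the methionine salvage route. With B12 Adi1 passed at -0.57 and Apip, at -0.40, did not (adjusted p = 0.244). In H/R against control Apip lost its call without H/R replicate 2 (-0.60, adjusted p = 0.0677) or control replicate 4 (-0.74, adjusted p = 0.0511). Adi1 lost it without H/R replicates 1 or 3 or control replicates 2 or 3, each left out singly, where its adjusted p ran from 0.0755 to 0.0997, and with centring (adjusted p = 0.0577) or a fit of only the 2 groups (adjusted p = 0.0507). With B12 its call was lost without any 1 of H/R+B12 replicates 1, 2 and 4 and control+B12 replicate 3 (adjusted p from 0.0606 to 0.0792) and in the fit of only the 2 groups (adjusted p = 0.0601). Of the other catabolic genes Sat2 was at -1.17 ± 0.37 (adjusted p = 0.0391). Its mean over 16 arrays, 4.90, lay below the negative controls, so the size of its difference is uncertain. Its call was lost without H/R replicates 1, 2 or 4 or control replicates 2 or 4, each left out singly (adjusted p from 0.0645 to 0.134). It was also lost with centring (adjusted p = 0.0540) and in the fit of only the 2 groups (adjusted p = 0.0665). Of 2 other antizyme and antizyme inhibitor genes 0 passed, both being below the negative controls.

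Hypusine, a residue made from spermidine, occurs in the translation factor eIF5A. Of 4 genes of that route Eif5a was at -0.44 ± 0.14 in H/R against control (adjusted p = 0.0374), where 9.54% of all probe sets passed as lower. The other 3 did not pass (median of the 4 genes, 0.04). The Eif5a call was lost with arrays centred on their medians (-0.37, adjusted p = 0.103) and in a fit of only the 2 groups compared (adjusted p = 0.0867). It was also lost without any 1 of H/R replicates 1, 2 and 4 and control replicates 1, 2 and 3, where the adjusted p ran from 0.0554 to 0.116. With B12 Eif5a was at -0.39 (adjusted p = 0.066). It passed there with the dimmest 25% left out (adjusted p = 0.0405), with an intensity trend and robust variances (adjusted p = 0.00287) and without control replicate 1 (adjusted p = 0.0494). With H/R averaged over both B12 conditions it was at -0.42 ± 0.10 (adjusted p = 0.00396).

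Transport genes had 2 of 10 higher and 3 lower (median -0.10), and with B12 in both arms 4 higher and 2 lower (median -0.13). The genes higher in both comparisons were the amino acid carriers Slc7a1 and Slc3a2. Cav1 (0.56) and Slc12a8 (1.00) passed as higher only with B12, and the mean of Slc12a8, 6.14, lay below the negative controls. Gpc1 was lower in both, at -0.46 (adjusted p = 0.0390) and at -0.47 with B12. Over all probe sets 8.11% passed as higher and 9.54% as lower, and with B12 9.04% and 9.61%. Over the 7 transport genes above the negative controls the medians were -0.08 and, with B12, 0.14. Slc7a1, the carrier of cationic amino acids including arginine and ornithine, rose by 1.99 ± 0.15 (adjusted p = 2.35e-07) and by 2.15 with B12. Slc3a2, the heavy chain of amino acid exchangers, rose by 1.43 ± 0.13 (adjusted p = 1.84e-06) and by 1.44 with B12. Slc18b1, a vesicular polyamine carrier, was lower, at -1.21 ± 0.22 (adjusted p = 0.000811) and at -1.23 with B12. Atp13a2, which exports polyamines from lysosomes, was at -0.77 ± 0.19 (adjusted p = 0.00976) and at -0.44 with B12 (adjusted p = 0.139), where it passed without control+B12 replicate 2 (-0.59, adjusted p = 0.0448).

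Myc, with its partner Max, is a known activator of Odc1 transcription. Myc was at -0.26 ± 0.13 in H/R against control (adjusted p = 0.219) and at -0.35 with B12 in both arms (adjusted p = 0.0736). With B12 Myc passed as lower with the dimmest 25% left out (adjusted p = 0.0435), with an intensity trend and robust variances (adjusted p = 0.0354) and after quantile normalization (adjusted p = 0.0449). With H/R averaged over both B12 conditions it was at -0.31 ± 0.09 and passed (adjusted p = 0.0195). Max was at 0.32 ± 0.15 (adjusted p = 0.189) and at 0.62 with B12, where it passed (adjusted p = 0.00816). In the Myc network 3 of 11 genes were higher and 2 lower in H/R against control (median 0.10). With B12 in both arms 4 were higher and 1 lower (median -0.13). Over all probe sets 8.11% passed as higher and 9.54% as lower, and with B12 9.04% and 9.61%. Over the 9 Myc network genes above the negative controls the medians were 0.32 and, with B12, 0.14. The Max-binding repressors Mnt (1.80 ± 0.21, adjusted p = 1.5e-05), Mxd1 (1.67 ± 0.23, adjusted p = 6.57e-05) and Mxi1 (1.28 ± 0.13, adjusted p = 4.45e-06) rose, and Mxd4 was at -1.51 ± 0.24 (adjusted p = 0.000306). For Mnt, Mxd1, Mxi1 and Mxd4 the values with B12 in both arms were 1.61, 1.75, 1.06 and -1.46. The other lower gene, Mxd3, was at -1.06 ± 0.30 in H/R against control (adjusted p = 0.0190). With B12 it was at -0.73 and did not pass (adjusted p = 0.104). Its mean over 16 arrays, 4.68, lay below the negative controls, so the size of its difference is uncertain.

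**Figure D4:**
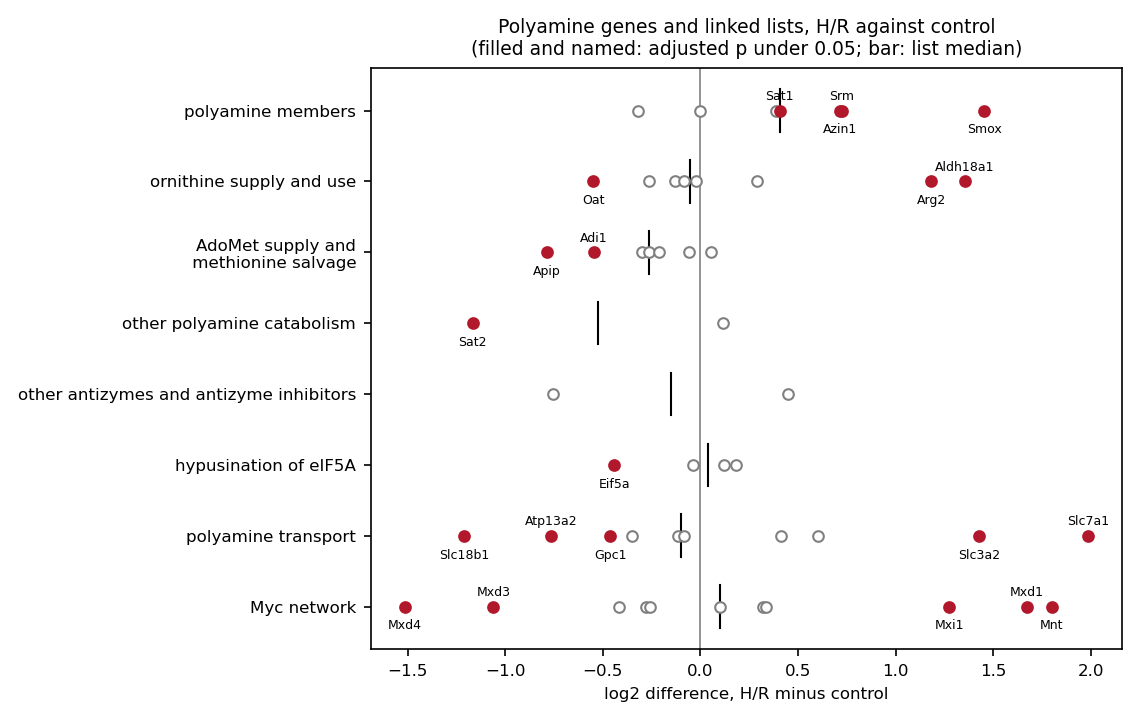
Log2 differences of H/R minus control for the 7 polyamine genes and 7 linked lists, 1 point a gene and 1 row a list; filled and named points passed an adjusted p of 0.05 and the bar is the list median. The points run from Mxd4 at -1.51 to Slc7a1 at 1.99, and the median of the polyamine genes lies at 0.41.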

How the data were processed

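The files hold 1 table of log2 signal per probe set and array, which the authors deposited after robust multi-array averaging (RMA). Affymetrix Expression Console and the Transcriptome Analysis Console are named too, per the submitters' processing notes, with versions not given in the sources used here. RMA normalizes arrays jointly and so compresses shifts shared by most genes. Of 28846 features 6640 controls were left out and 22206 probe sets were tested, 19572 with 1 gene symbol, 0 with several and 2634 with no gene name here. All 19572 gene IDs matched the RefSeq table of GRCm38.p6 and 0 symbols changed. Depth does not apply to arrays, and the 4 arrays a group limit precision.

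Groups came from sample titles. All 16 arrays were fitted with limma 3.58.1 in R 4.3.3 as 4 groups, without a block, with empirical Bayes variances. Two-sided p-values were adjusted by the method of Benjamini and Hochberg over 22206 probe sets, separately for each comparison, and 0.05 was the threshold. Differences carry their SE and 95% interval. The fit was tested on simulated data. The members and linked lists were chosen with earlier results of these data known. All 7 measured members are named, with up to 4 called genes per linked list by smallest p, plus Myc and Max. Mxd3, Gpc1, Slc12a8 and Cav1 were named besides and were not followed through the alternatives. The alternatives were a replicate block, fits of 2 groups, array weights, variances that follow intensity and are estimated robustly, a filter removing the dimmest 25%, quantile normalization, centring, 1 probe set per gene and leaving out each array. Averaging H/R over B12 was added after seeing the data. Figures used Python 3.11.15 with matplotlib 3.10.9.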

Additional observations from a re-analysis of the deposited data

Results flagged for a closer look

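Dixon's test was run in 100 groups of 4 arrays (25 named genes in 4 groups, without Mxd3, Gpc1, Slc12a8 and Cav1). Of these groups 11 held an array far from the other 3 at a critical value of 0.829, where chance flags about 1 in 20. Among the polyamine genes, Srm was 11.39 in H/R+B12 replicate 2 against 11.31 to 11.32 in the other 3, a small gap in a tight group. Smox was 12.10 in H/R+B12 replicate 2 against 12.45 to 12.50. Amd2 was 8.91 in H/R replicate 4 against 9.50 to 9.52, and 9.80 in control replicate 1 against 8.81 to 8.97.

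Among linked genes, Aldh18a1 was 13.71 in H/R replicate 4 against 14.08 to 14.16 in the other 3 arrays. Apip was 9.10 in H/R+B12 replicate 1 against 9.71 to 9.83, and Eif5a 15.43 in H/R+B12 replicate 4 against 15.74 to 15.74. Slc18b1 was 9.01 in control+B12 replicate 2 against 8.17 to 8.23. Atp13a2 was 7.21 in control replicate 3 against 6.64 to 6.72, and Mxi1 was 12.79 in control replicate 1 against 13.11 to 13.11. Mxd1 was 11.07 in H/R replicate 3 against 10.59 to 10.65.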

How the results depend on the processing

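Of 840 recomputed values of the 7 members over 5 comparisons, 7 lost a call (3 of Srm and 4 of Sat1 in H/R against control). In 4 a call was gained, all of Odc1 and counted under H/R against control. Among these 4 is H/R averaged over both B12 conditions, which is a different comparison that includes the B12 arrays. Of the values 0 reversed, and the others stayed on their side of the threshold. The cause of these changes was not tested. The number of members called ran from 3 to 5 in H/R against control when each array was left out, was 5 throughout in H/R+B12 against control+B12, and was 0 throughout in the comparisons of B12 and in the interaction. Over all probe sets the same ranges were 3315 to 3930, 3528 to 4148, 0 to 1 for H/R+B12 against H/R, 0 to 1 for control+B12 against control (the 1 probe set in each came without H/R replicate 1 and without control replicate 2), and 0 for the interaction. With the replicate block 4 and 5 members were called, as without it, and 3673 and 3932 probe sets, against 3919 and 4142 without it; of the named linked genes Eif5a (adjusted p = 0.0581) and Sat2 (adjusted p = 0.0537) lost their calls. Same-numbered arrays deviated from their group means with correlations of -0.07 to 0.08 over 24 pairs, and 7 of 16 arrays correlated best with their own number, so the numbers were not taken as pairing. No gene among the 7 had a further probe set to try. Among linked genes in H/R against control, Adi1 lost its call in 6 settings and Apip without H/R replicate 2 (adjusted p = 0.0677) or control replicate 4 (adjusted p = 0.0511). Genes below the negative controls have differences of uncertain size. Among the named linked genes these were Sat2, Mat1a, Mxd3 and Slc12a8.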
